A study of Mus musculus with 9 samples.

Results

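A set of 6203 sites was examined that carried an ATAC-seq peak in wild type (WT) mouse embryonic fibroblasts (MEFs), none in Anp32e null MEFs, and again a peak in Anp32e null MEFs that had received siRNAs against H2A.Z. They were drawn from 125387 sites on chromosomes 1 to 19 of mm10, made by merging overlapping or touching peaks of 4 lists, and members were chosen by the peak calls of the WT, null and H2A.Z siRNA lists at each merged site. The list from cells treated with non-targeting (NT) siRNA entered the merging, where it can join otherwise separate peaks, but its calls were not part of the rule. At 10 members the strongest WT and the strongest H2A.Z siRNA peak did not overlap. It splits the members into 3948 with and 2255 without an NT siRNA peak. Both sets are given separately where the values are read between them. Since the calls chose the sites, presence and absence in the WT, null and H2A.Z siRNA lists and the strength of those peaks are descriptions and not findings.

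The cells were primary MEFs below passage 8, either wild type or Anp32e null, and those of both siRNA groups were Anp32e null throughout, so no WT cells received an siRNA. The NT siRNA group received a non-targeting pool and the H2A.Z siRNA group a pool of 4 siRNAs. WT and null had 3 libraries each, H2A.Z siRNA had 2 and NT siRNA had 1, and 1 peak list was deposited for each group. Every site therefore has 1 value per list and group, there is no replicate spread and no test between groups, and the intervals given here are 95% intervals of counting error. Neighboring sites are not independent, so the number of autosomes that show a direction is given beside the intervals.

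ATAC-seq marks DNA that the Tn5 transposase can reach, which in fibroblasts means promoters, enhancers and insulator sites where nucleosomes are displaced or loosened. H2A.Z is a variant of histone H2A found in nucleosomes next to active promoters and at enhancers, and ANP32E is a chaperone that binds H2A.Z and takes it out of nucleosomes. The study asked whether changes in accessibility upon ANP32E loss depend on H2A.Z, and the members are the sites where the peak calls go from present to absent upon ANP32E loss and are present again after H2A.Z depletion.

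The strongest members show what these sites look like. Members were ranked by the lower of their WT and H2A.Z siRNA percentiles of fold enrichment, where a percentile gives a peak's place within its own list, and the sequences are the WT summit with 100 bases on each side, plus strand of GRCm38 (mm10), of the 3 highest distal members that could be printed and the highest such member at a protein-coding transcription start site (TSS) in each set. The site near Prdm6, which ranked second with an NT siRNA peak, is described by its values only. Capitals mark matches to 9 transcription factor consensus sequences searched on both strands, described with the motif shares. The members with an NT siRNA peak are a site in an intron of Ecpas at chr4:58867318-58867518, a site in an intron of Peli2 at chr14:48189431-48189631, a site in an intron of Mylk3 at chr8:85373900-85374100, and a site 296 bp from a TSS of Igsf5 at chr16:96396010-96396210.
Ecpas: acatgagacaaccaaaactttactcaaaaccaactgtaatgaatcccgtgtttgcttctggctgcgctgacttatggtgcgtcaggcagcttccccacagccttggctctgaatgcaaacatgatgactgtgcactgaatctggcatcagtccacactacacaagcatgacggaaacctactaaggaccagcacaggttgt
Peli2: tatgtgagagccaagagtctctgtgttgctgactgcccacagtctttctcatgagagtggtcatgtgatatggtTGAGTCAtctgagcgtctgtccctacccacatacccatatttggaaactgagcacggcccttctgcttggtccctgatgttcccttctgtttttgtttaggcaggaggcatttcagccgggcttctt
Mylk3: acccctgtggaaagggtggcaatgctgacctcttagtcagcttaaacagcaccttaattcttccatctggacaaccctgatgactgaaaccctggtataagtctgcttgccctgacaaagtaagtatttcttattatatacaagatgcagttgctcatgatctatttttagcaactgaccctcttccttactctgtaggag
Igsf5: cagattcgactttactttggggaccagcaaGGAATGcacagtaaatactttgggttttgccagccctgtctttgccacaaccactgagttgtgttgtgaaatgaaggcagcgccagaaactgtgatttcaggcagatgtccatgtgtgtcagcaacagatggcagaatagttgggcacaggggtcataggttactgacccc

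The members without an NT siRNA peak are an intergenic site 243677 bp from the nearest protein-coding TSS, that of Impad1, at chr4:5036932-5037132, an intergenic site 11169 bp from the TSS of Edil3 at chr13:88810203-88810403, a site in an intron of the non-coding gene Gm20110 at chr10:99619505-99619705, and a site at the TSS of 4930503B20Rik at chr3:146651338-146651538.
Impad1: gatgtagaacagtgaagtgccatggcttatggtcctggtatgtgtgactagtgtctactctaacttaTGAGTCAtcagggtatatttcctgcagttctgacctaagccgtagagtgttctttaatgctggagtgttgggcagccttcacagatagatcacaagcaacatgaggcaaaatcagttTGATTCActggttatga
Edil3: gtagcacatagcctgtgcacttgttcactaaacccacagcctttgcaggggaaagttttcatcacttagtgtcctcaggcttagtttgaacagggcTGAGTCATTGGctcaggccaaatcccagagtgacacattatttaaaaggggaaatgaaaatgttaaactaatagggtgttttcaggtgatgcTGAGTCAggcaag
Gm20110: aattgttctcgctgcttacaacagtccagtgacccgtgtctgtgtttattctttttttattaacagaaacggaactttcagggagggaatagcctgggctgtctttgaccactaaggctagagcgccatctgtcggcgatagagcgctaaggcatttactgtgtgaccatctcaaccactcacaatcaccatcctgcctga
4930503B20Rik: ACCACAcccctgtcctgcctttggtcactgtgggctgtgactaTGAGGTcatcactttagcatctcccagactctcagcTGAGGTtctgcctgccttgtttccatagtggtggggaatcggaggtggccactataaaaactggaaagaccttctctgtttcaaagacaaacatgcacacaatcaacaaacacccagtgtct

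AP-1 matches (TGANTCA) stand at 3 of these 8 sites. The N takes any base, so the search covers the element bound by Fos and Jun dimers, with C or G there. It also takes forms with A or T, as in the second Impad1 match. In the Peli2 intron the match lies 26 to 20 bases before the summit. The Edil3 site has 1 match from 4 bases before to 2 bases after the summit and another 88 to 94 bases after it, with an NF-Y match (CCAAT, read on the minus strand) at 2 to 6 bases after it that runs on from the first, and the Impad1 site has matches 33 to 27 bases before and 84 to 90 bases after its summit. The Igsf5 site holds a TEAD match (GGAATG, read by the DNA-binding partners of YAP) 70 to 65 bases before the summit. At 4930503B20Rik the capitals mark 3 RUNX matches (TGNGGT), which begin 100, 57 and 21 bases before the summit. The Ecpas, Mylk3 and Gm20110 windows held none of the letters searched.

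Members made up a minority of the WT sites without a null peak. Of 79847 sites with a WT peak, 15345 had no null peak, which is 19.2%, and 6203 of these, 40.4% (interval 39.6 to 41.2%), had an H2A.Z siRNA peak. Over all WT sites the share with an H2A.Z siRNA peak was 84.2%, and over the 64502 sites called in both genotypes it was 94.6%. Over the 13651 sites with a null and no WT peak it was 69.4%. An NT siRNA peak was present at 29% of the WT sites without a null peak. The remaining WT sites without a null peak were 8635 called in WT alone and 507 called in WT and NT siRNA only. The members together covered 3.95 Mb, and 99.3% of them consisted of 1 WT and 1 H2A.Z siRNA peak.

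Most members were also called in null cells that had received the control siRNA. An NT siRNA peak was present at 63.6% of members (62.4 to 64.8%), ranging from 58.3% on chromosome 5 to 74.2% on chromosome 11. The share among all 105630 sites with an H2A.Z siRNA peak was 75.5%, and it was 94.3% (94.1 to 94.5%) where WT and null also had a peak. The mirror class, 9476 sites with null and H2A.Z siRNA peaks and no WT peak, had an NT siRNA peak at 72.5% (71.6 to 73.4%). In the other direction, 88.6% (87.7 to 89.5%) of the 4455 sites called in WT and NT siRNA but not in null were members. At most of these sites a peak was thus called with the control siRNA as well, and the 2255 others were called with the H2A.Z siRNAs and not with the control.

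The 2 siRNA lists differ in depth. The most frequent local background of a list, a measure of its depth, was 3.88 fragments for the control siRNA and 17.8 for the H2A.Z siRNAs, 4.59 times more, and 8.85 in WT against 5.12 in null, 1.73 times more. When the fragments and background of each H2A.Z siRNA peak were scaled down to the NT siRNA depth, 73.8% (71.9 to 75.6%) of the members without an NT siRNA peak still passed the lowest significance accepted in the NT siRNA list, and 591 did not. Among members with an NT siRNA peak 92.9% (92 to 93.6%) passed. Scaling the WT peaks to the null depth left 86.7% (85.9 to 87.6%) of all members above the lowest significance in the null list, compared with 98.8% of sites called in all 4 lists. Both the WT and the H2A.Z siRNA peak would have passed at null depth at 80.1% of members (79.1 to 81%). The NT siRNA list was shallower than the null list, at 0.758 times its background. Scaling its peaks up to the null depth raises their significance. That all 3948 at members passed was thus set by the scaling, and nothing is read from it. WT peaks that did not pass at null depth numbered 454 at members with and 369 at members without an NT siRNA peak. The scaling leaves out sampling error. The median scaled −log10 p of WT peaks was 4.37 and 4.07 in these sets, and the null list began at 3. Passing thus does not set depth aside at a member, and its part cannot be told apart from that of genotype or siRNA.

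Peaks at members were weak in each list. The median WT peak stood at percentile 19.6 of fold in its list for members with an NT siRNA peak and 17.3 for members without, where sites called in all 4 lists had a median of 63.3. The WT summit held 30 fragments in the median (range 19 to 107) in the first set and 29 (range 19 to 155) in the second. Sites called in WT alone had a similar WT strength, with a median percentile of 17.3 and 27 fragments. The sets separated in the H2A.Z siRNA list, with medians of 39.1 and 20.6, and summits of 114 and 69 fragments. In the NT siRNA list, members called there had a median percentile of 29.5 and 31 fragments. Widths followed, with median H2A.Z siRNA peaks of 568.5 bp and 389 bp in the 2 sets and WT peaks of 340 bp and 329 bp.

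**Figure D1:**
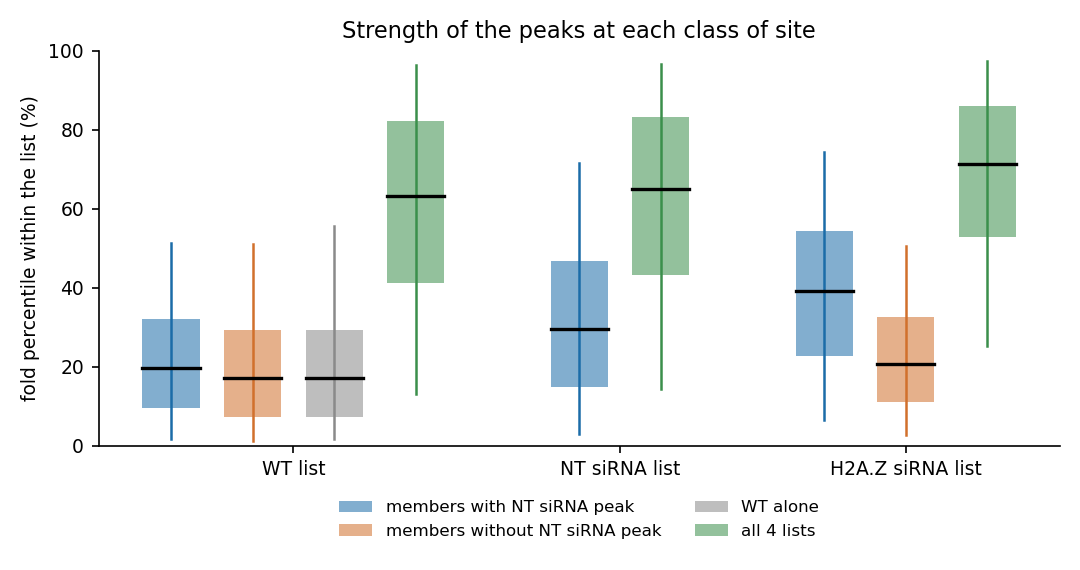
Fold percentile of peaks within their own list (vertical axis, %) at members with and without an NT siRNA peak, sites called in WT alone and sites called in all 4 lists, for the WT, NT siRNA and H2A.Z siRNA lists. Boxes span the quartiles, black lines are medians (19.6, 17.3, 17.3 and 63.3 in the WT list) and thin lines run from the 5th to the 95th percentile of sites. Members without an NT siRNA peak sit lowest in the H2A.Z siRNA list, at a median of 20.6.

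Peaks close to the calling threshold were counted. WT peaks at members had a median −log10 q of 4.74, against 4.06 at sites in WT alone and 15 at all WT sites. Their 5th percentiles were 2.09, 1.82 and 2.73. The lowest WT significance of a member was a −log10 q of 1.31, and 191 members (3.08%) lay under 2. In the H2A.Z siRNA list the lowest was 1.42, with 12 members under 2. On the other side, the weakest null peak among the 60995 sites with WT, null and H2A.Z siRNA peaks had a −log10 q of 1.33, and 167 of these sites (0.274%) had a null peak under 2. The values of null cells at members lie below the calling threshold and were not analysed here.

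WT strength and the call after H2A.Z siRNA were loosely related. Among WT sites without a null peak, the share with an H2A.Z siRNA peak was 37.8% (36.4 to 39.2%) in WT percentiles 0 to 10, 45.2% (42.9 to 47.6%) between percentiles 30 and 40, and 36.2% (33.2 to 39.3%) between 50 and 75. Above percentile 75 only 61 such sites existed, of which 11 were members. The share called after H2A.Z siRNA without an NT siRNA peak stayed between 12.6% and 15.3% up to percentile 75. The opposite call, an NT siRNA peak with no H2A.Z siRNA peak, was made at 2.53% to 4.68% of sites over the same range.

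**Figure D2:**
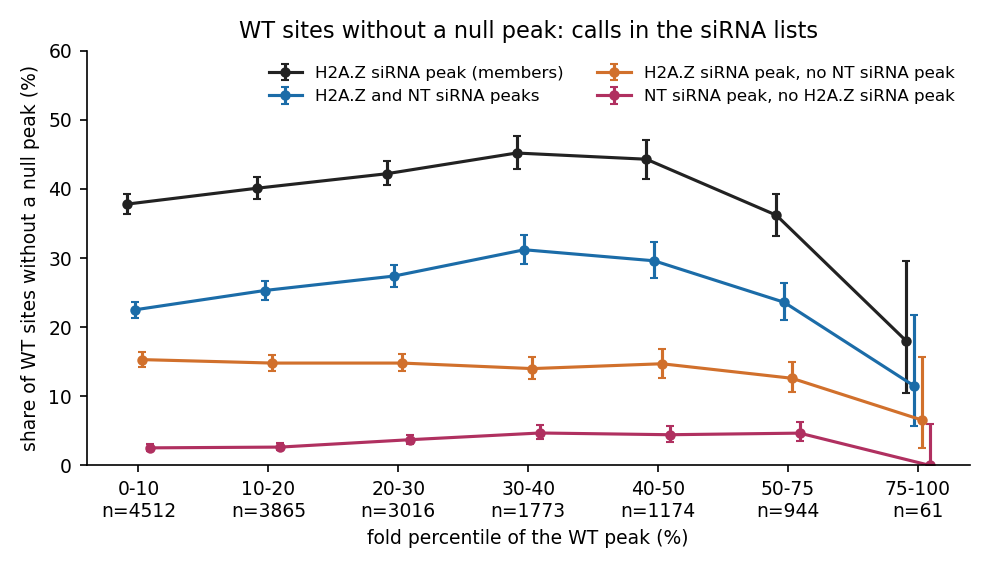
Share of WT sites without a null peak (vertical axis, %) that were called in the siRNA lists, by the fold percentile of the WT peak (horizontal axis, n of sites below each bin). Points are shares and bars 95% Wilson intervals. The share of members rose from 37.8% to 45.2% and was 18% (10.4 to 29.5%) in the 61 sites above percentile 75.

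The NT siRNA call went with the strength of the site after H2A.Z siRNA. Among members in percentiles 0 to 20 of the H2A.Z siRNA list, 43.4% (41.2 to 45.6%) had an NT siRNA peak, and the share was 58.5%, 81.5%, 93.4% and 98% in the following bins of 20 points. Above percentile 80, 99 members had an NT siRNA peak and 2 had none. In percentiles 0 to 20 the share was 64.3% (62.5 to 66%) at sites that WT and null also shared, 45.8% (43.6 to 48.1%) in the mirror class, and 22.2% (21.5 to 22.8%) at sites with neither a WT nor a null peak. Members lay between these classes, close to the mirror class.

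Where both siRNA lists had a peak, their levels were compared as summit fragments over the background of the list. The log2 ratio of H2A.Z siRNA to NT siRNA had a median of −0.347 at the 3948 members with an NT siRNA peak (quartiles −0.659 and −0.0619), and −0.254 at sites in all 4 lists. It was −0.35 at sites with peaks in the siRNA lists only and −0.285 at sites that null and both siRNA lists share without WT. H2A.Z siRNA was the higher of the pair at 20.8% of these members, 25.5% of sites in all 4 lists, and 21.3% and 27.1% of the other classes. The member value was thus close to that of the sites found in the siRNA lists only. By percentile rank the order was the other way, with H2A.Z siRNA ahead by 6.55 points in the median member, 4.38 points at sites in all 4 lists, and 6.85 and 8.52 points in the other classes. Percentiles are places within a list, and the H2A.Z siRNA list, at 105816 autosomal peaks, was longer than the NT siRNA list, at 87116. H2A.Z siRNA was ahead by rank in all of these classes and not at members alone. The part of list length and depth in this lead was not tested, so no direction of an siRNA difference at members is read from the ranks.

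Ecpas encodes an adaptor of the proteasome, and the site in its intron was the strongest member. It held 66 fragments in WT (percentile 75.9), 86 in the NT siRNA list (95.6) and 368 in the H2A.Z siRNA list (99.5), and the nearest null peak lay 40902 bp away. The values rank it near the top of both siRNA lists and well below that in WT. The Peli2 site, in a gene for a ubiquitin ligase of innate immune signaling, had 58, 91 and 365 fragments, at percentiles of 70.3, 93.4 and 97.2, in the same order.

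Some of the other leading members with an NT siRNA peak were ranked more evenly. At the Mylk3 intron (a myosin light chain kinase) the percentiles were 73.3 in WT, 67.4 with control siRNA and 69.2 with H2A.Z siRNA. In an intron of Stam, an adaptor in endosomal sorting, they were 67.9, 56.7 and 71.6. An intergenic site 133042 bp from the TSS of Prdm6, a transcriptional repressor of smooth muscle cells, had 71.5, 68.8 and 70.3, and a null peak 1364 bp away. At Mylk3 and Prdm6 the lists lay close together, while at Stam the NT siRNA list was lowest. The intergenic site 29289 bp from the TSS of Plau (urokinase) had 73.1, 62.4 and 66.1, and the one 450164 bp from that of Jag1 (a Notch ligand) had 74.6, 61.8 and 66, both highest in WT. The site 6772 bp from the TSS of Tcim, a regulator of Wnt signaling, had 65, 83 and 80.1, so that both siRNA lists stood above WT, as at Ecpas and Peli2.

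The 8 leading members without an NT siRNA peak lay in introns or intergenic sequence. The Edil3 site, near a gene for an integrin ligand of the extracellular matrix, ranked higher in WT, with 78 fragments (percentile 82.6), than after H2A.Z siRNA, with 133 (61.9). In an intron of Rarb, which encodes a retinoic acid receptor, WT had 48 fragments (61.3) and H2A.Z siRNA 194 (78.1), with no null peak closer than 9685 bp. In an intron of Nedd9, a scaffold of focal adhesions, there were 49 and 120 fragments, at percentiles of 62.4 and 57.5. The order of the lists thus differed between members of this set.

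The Camk2d intron site (a calcium-dependent kinase) held 81 fragments in WT and 312 after H2A.Z siRNA, and a null peak began 951 bp away. At the Impad1 intergenic site the counts were 51 and 181, and at the Gm20110 site 51 and 161. The intergenic site 14919 bp from the TSS of Nhlrc3 had 45 fragments in WT and the highest H2A.Z siRNA percentile of these 8, 90.5, with 270 fragments. In an intron of F13a1, which encodes a subunit of coagulation factor XIII, the counts were 44 and 169. Such levels without an NT siRNA peak were exceptions, since the median member of this set stood at percentile 20.6.

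Few members lay at promoters. Within 1 kb of an annotated TSS lay 775 members, 12.5% (11.7 to 13.3%, autosomes 9.15 to 17.5%), against 30.7% of sites called in all 4 lists, which was higher on each of the 19 autosomes, and 25.4% of all WT sites. The share was 13.4% (12.4 to 14.5%) with and 10.8% (9.6 to 12.2%) without an NT siRNA peak, a difference of 2.63 points (0.933 to 4.27), found on 15 autosomes. Sites in WT alone had 10.4%. A site counted when any part of it lay in the window, so wider sites reach it more easily. Median site widths were 625 bp and 473 bp in the sets, 317 bp in WT alone and 936 bp in all 4 lists. The part of width in these shares was not tested. With protein-coding TSSs alone, 5.22% of members qualified. Introns held 47% of member summits and intergenic sequence 36.1%, while coding exons held 1.39%.

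Compared with sites in WT alone, which share their WT and null calls, members lay nearer to genes and to other accessible sites. Only 7.16% (6.54 to 7.83%) of members were over 50 kb from any TSS, compared with 14.5% (13.8 to 15.3%) of sites in WT alone, with the member share lower on 19 of 19 autosomes. A null peak lay within 10 kb of 71.2% (70.1 to 72.4%) of members and 52.6% (51.6 to 53.7%) of sites in WT alone, again on 19 of 19 autosomes. The sets with and without an NT siRNA peak were close for the null peak within 10 kb, at 70.8% and 71.9%, a difference of −1.08 points (−3.4 to 1.27). For sites over 50 kb from any TSS they were 6.51% and 8.29%, a difference of −1.78 points (−3.2 to −0.441), lower with an NT siRNA peak on 14 of 19 autosomes. Within 1 kb a null peak was present for 729 members, 11.8%.

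**Figure D3:**
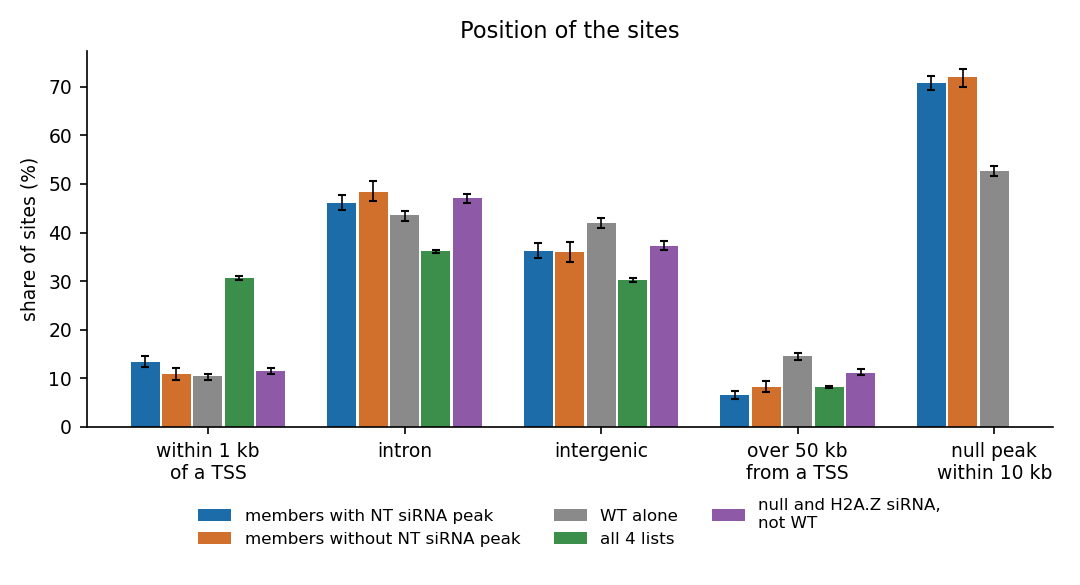
Share of sites (vertical axis, %) within 1 kb of a TSS, in introns, in intergenic sequence, over 50 kb from any TSS, and with a null peak within 10 kb, for 5 classes of site, with 95% Wilson intervals as whiskers. The last group leaves out the classes that have a null peak themselves. Members with and without an NT siRNA peak stand at 13.4% and 10.8% near a TSS against 30.7% for sites in all 4 lists, and at 70.8% and 71.9% near a null peak against 52.6% for WT alone.

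Promoter members were found at genes of several functions. The highest-scoring at a protein-coding TSS with an NT siRNA peak was at Igsf5, a junction protein, with WT, NT siRNA and H2A.Z siRNA percentiles of 60, 47.7 and 74.7. It was followed by Prkar1b, a regulatory subunit of protein kinase A (59.7, 56.1 and 72.1), Chrna9, a nicotinic receptor subunit (54.2, 76.2 and 91.7), Akap2, a kinase-anchoring protein (64.3, 30.4 and 50.4), and Fabp4, a fatty acid binding protein of adipocytes (47.6, 59.8 and 57.3). All 5 were in the middle of the WT list. At Fabp4 a null peak lay 560 bp from the site.

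Of the 5 highest promoter members without an NT siRNA peak, 4 ranked below all 5 with one in the WT list and 4 did in the H2A.Z siRNA list, the lists that ranked them. The first, at 4930503B20Rik, reached percentiles of 37.6 in WT and 38.4 after H2A.Z siRNA, and the others were at Fam107b (32.9 and 69.3), Nup93, a component of the nuclear pore (32.1 and 45.4), Mov10l1, an RNA helicase of the germline (52.8 and 31.2), and D130052B06Rik (29.4 and 29.8). The Nup93 site had a null peak 966 bp away. Fam107b was the only one of these 5 above percentile 50 after H2A.Z siRNA.

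Members near genes of 15 lists fitting fibroblasts and this chaperone were counted by the nearest protein-coding TSS. Over all genes, 4296 of the 16241 nearest to a WT site had a member, and genes with more WT sites have more places for one. Of the 38 mesenchymal transcription factor genes, which had 724 WT sites, 25 had a member, with 68 members in all, 1.1% of members (0.866 to 1.39%) against 0.907% of WT sites (0.843 to 0.975%). Fibroblast matrix genes had 37 members at 21 genes, 0.596% of members against 0.471% of WT sites, and Wnt genes 36 at 20, 0.58% against 0.468%. TGF-beta and BMP genes had 34 at 16 (0.548% against 0.605%), Hippo, YAP and TEAD genes 29 at 14 (0.468% against 0.353%), and actin and contractility genes 23 at 10 (0.371% against 0.327%). AP-1 family genes had 13 members at 7 genes (0.21% against 0.195%), BAF remodeler genes 11 at 8 (0.177% against 0.14%), genes of H2A.Z deposition and removal 7 at 7 (0.113% against 0.12%), and Hox genes 2 at 2 (0.0322% against 0.0751%). With and without an NT siRNA peak the members numbered 50 and 18 for mesenchymal factors, 28 and 9 for matrix, 26 and 10 for Wnt, 18 and 16 for TGF-beta and BMP, 22 and 7 for Hippo, 16 and 7 for actin, 10 and 3 for AP-1, 8 and 3 for BAF, 6 and 1 for H2A.Z deposition and removal, and 2 and 0 for Hox genes. The share lay above that of WT sites in the first set and below it in the second for these lists except TGF-beta and BMP, where it was 0.456% (0.289 to 0.72%) and 0.71% (0.437 to 1.15%), and Hox, where both were below. The intervals of the sets overlapped in each list. In each of these 10 lists the interval of the member share overlapped that of all WT sites.

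Markers of other cell types were counted in the same way, from short lists of 12 or 13 genes. Epithelial markers had 10 members. Muscle and neural markers had 6 each, 0.0967% of members against 0.0626% and 0.0864% of WT sites. Endothelial markers had 4 (0.0645% against 0.14%) and macrophage markers 3 (0.0484% against 0.0589%). With and without an NT siRNA peak these were 6 and 4 for epithelial, 4 and 2 for muscle, 2 and 4 for neural, 1 and 3 for endothelial, and 2 and 1 for macrophage markers. For epithelial markers the share was 0.161% (0.0876 to 0.297%) against 0.0639% (0.0486 to 0.084%) of WT sites, on 10 sites at 9 genes, and no site in WT alone was nearest to one of them. The epithelial share had an interval above that of all WT sites, whereas those of the other 4 markers overlapped. With 15 lists read side by side and no test, this is given as a count. Of these marker genes, Pecam1, an adhesion molecule of endothelial cells, had a member within 1 kb of a TSS, which lay 4 bp from a TSS of Milr1 and had percentiles of 39 in WT, 47.7 with control siRNA and 77.3 with H2A.Z siRNA.

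At the TSSs of listed genes, members were weak in WT and all but 1 of those named had an NT siRNA peak. Near a TSS of Arid1a, a subunit of the BAF remodeler, WT stood at percentile 0.337 with 52 fragments, NT siRNA at 0.0367 with 105 and H2A.Z siRNA at 11.3 with 591, and a null peak lay 834 bp away. At Tead3, a TEAD factor, the percentiles were 3.72, 21.6 and 20, with a null peak 544 bp away. The patterning genes Hoxb13 and Hoxc10 had WT percentiles of 26.6 and 5.9 and H2A.Z siRNA percentiles of 26.7 and 7.74, with no null peak within 10 kb of either. Foxp1, Tbx5, Osr1 and Prrx2, which encode transcription factors of mesenchymal development, had WT percentiles of 14, 15.3, 5.91 and 1.46. Prrx2 differed from the others in the siRNA lists, at 61 (NT) and 60.9 (H2A.Z), where the highest of the other 3 was 14.9. A second member at Tbx5, without an NT siRNA peak, had percentiles of 0.924 in WT and 3.4 after H2A.Z siRNA.

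Members were spread over many genes. They were nearest to 4296 protein-coding genes, of which 3068 had 1 member and 58 had 5 or more. The most were 9 members each, at Zmiz1, a transcriptional coactivator (6 with an NT siRNA peak, of 35 WT sites), and Hmga2, an architectural chromatin protein of embryonic cells (5, of 46 WT sites). Msi2, Erc2, Trio and Asap1 had 8 each. At Trio and Asap1, 2 and 3 of the 8 had an NT siRNA peak, while at Serp2 all 7 members had one. The median distance from a member to the nearest other member was 62127 bp.

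The densest megabase was chr4:135000001-136000000, which holds Runx3, Clic4 and Grhl3 among other genes, with 18 members among 21 WT sites without a null peak, 17 of them with an NT siRNA peak. Next was chr8:123000001-124000000, with 16 members of 19, followed by 3 windows with 15 members each, chr11:101000001-102000000 (of 16), chr11:117000001-118000000 (of 18) and chr7:112000001-113000000 (of 20). These windows were singled out for their counts, so the counts are descriptions.

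Chromosomes differed in the share of WT-specific sites that were members. On chromosome 11, 56.7% (53.4 to 59.8%) of the WT sites without a null peak were members, on chromosome 19 53.2% (47.7 to 58.7%), and on chromosome 10 33.8% (30.8 to 36.9%). Relative to all WT sites, members numbered 116 per 1000 on chromosome 11, 99.9 on chromosome 14 and 95.4 on chromosome 9, and 62.3 and 62.7 per 1000 on chromosomes 16 and 10. The interval for chromosome 11 did not overlap that of any autosome other than 19.

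Both measures of member frequency were set against levels at the sites that all 4 lists share. The median log2 ratio of null to WT level at shared sites ranged from 0.403 to 0.841 over the 19 autosomes, and autosomes with a lower ratio had more members per 1000 WT sites (Pearson's r −0.842, Spearman's coefficient −0.85, and r −0.811 without chromosomes 14 and 18). With the share of WT sites without a null peak that were members, the same ratio had r −0.19 and a Spearman's coefficient of −0.293. The median log2 ratio of NT siRNA to null level ranged from 0.736 to 1.3, and it rose with the share of WT sites without a null peak that were members (Pearson's r 0.904, Spearman's coefficient 0.726, and r 0.647 without chromosomes 11 and 19). With members per 1000 WT sites it had r 0.501 and a Spearman's coefficient of 0.453. Each level thus went with 1 of the measures more closely than with the other, and these are 4 of 12 pairings computed. On chromosome 11 that ratio was 1.3, and on 19 it was 1.22. The points share the libraries and their depth, so the coefficients describe these lists. Whether chromosome-wide level played a part in the member calls was not tested.

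**Figure D4:**
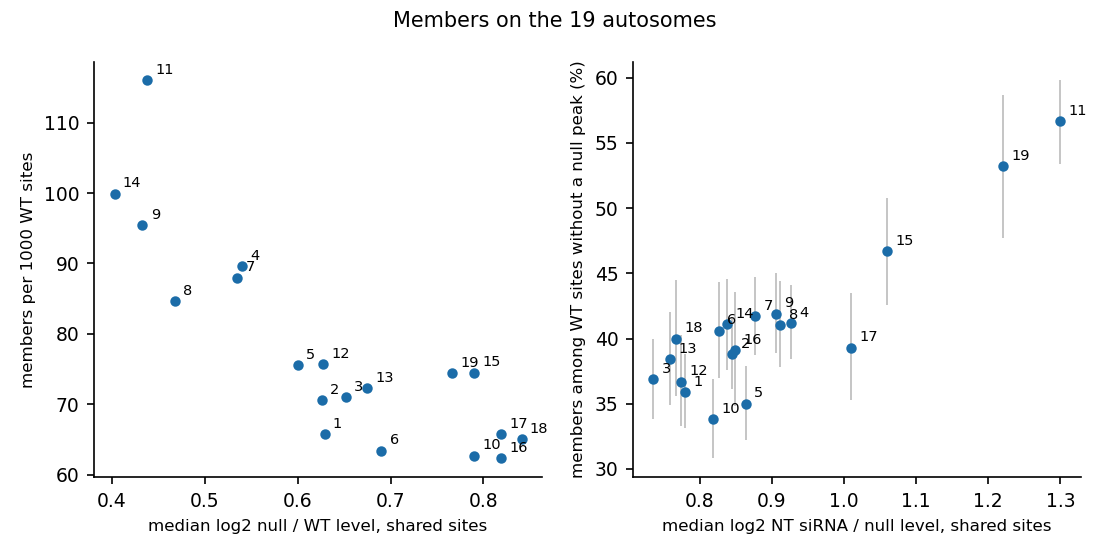
Members on the 19 autosomes, 1 point per chromosome with its number. Left, members per 1000 WT sites against the median log2 ratio of null to WT level at sites called in all 4 lists. Right, members as a share of WT sites without a null peak (%, bars are 95% Wilson intervals) against the median log2 ratio of NT siRNA to null level. Chromosome 11 is highest on both vertical axes, at 116 per 1000 and 56.7%.

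Sequence set the 2 sets of members apart. An AP-1 match was found in the summit window of 22.8% (21.5 to 24.2%) of members with an NT siRNA peak and 30.6% (28.7 to 32.5%) of members without, a difference of −7.78 points (−10.1 to −5.48), with the first set lower on 17 of 19 autosomes. The size of the difference moved with the setting, to −14.5 points with lists of equal length, −12.9 with a −log10 q of 5 or more in the WT and H2A.Z siRNA lists, and −4.69 with 50 bases on each side of the summit. Sites in WT alone had a match at 20.3% (19.4 to 21.1%), sites in all 4 lists at 29.6%, the mirror class at 31.4% (30.5 to 32.4%) and all WT sites at 28.2%. Members without an NT siRNA peak thus exceeded sites in WT alone by 10.3 points (8.26 to 12.4), on 18 of 19 autosomes. Away from promoters the shares were 23.6% and 31.5% in the sets, 21.2% in WT alone and 37.7% at sites in all 4 lists. The consensus is short and its N takes any base, and a match describes the letters and not binding.

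The AP-1 difference was found in each bin of strength. In each of 5 bins of H2A.Z siRNA percentile, members without an NT siRNA peak had the higher share, from 19.3% against 11.1% in percentiles 0 to 10 to 45% (36.4 to 53.9%) against 29.8% (27.3 to 32.4%) above percentile 50. Binned by WT percentile, the pairs ran from 22.4% against 14.5% in percentiles 0 to 10 to 48% against 34.8% above percentile 50. The share rose with strength in both sets, and the set that was weaker after H2A.Z siRNA nevertheless had more matches.

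The CTCF consensus, the element of the main insulator protein, showed the opposite order, at 4.79% (4.16 to 5.5%) with and 2.04% (1.53 to 2.71%) without an NT siRNA peak, a difference of 2.75 points (1.83 to 3.62) on 15 of 19 autosomes. Sites in WT alone had 1.13% (0.932 to 1.38%) and all WT sites 2.84%. Within bins of H2A.Z siRNA strength the intervals of the 2 sets overlapped each time, with 8.25% (6.84 to 9.92%) and 6.67% (3.42 to 12.6%) above percentile 50. In percentiles 0 to 10 the order was the other way, at 0.568% with and 0.947% without an NT siRNA peak. It was so in percentiles 10 to 20 too, at 0.62% and 1.25%, while the bins above 20 kept the order of the whole sets. CTCF matches were thus more frequent where the H2A.Z siRNA peak was stronger, and the part of strength in the difference between the sets was not tested.

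**Figure D5:**
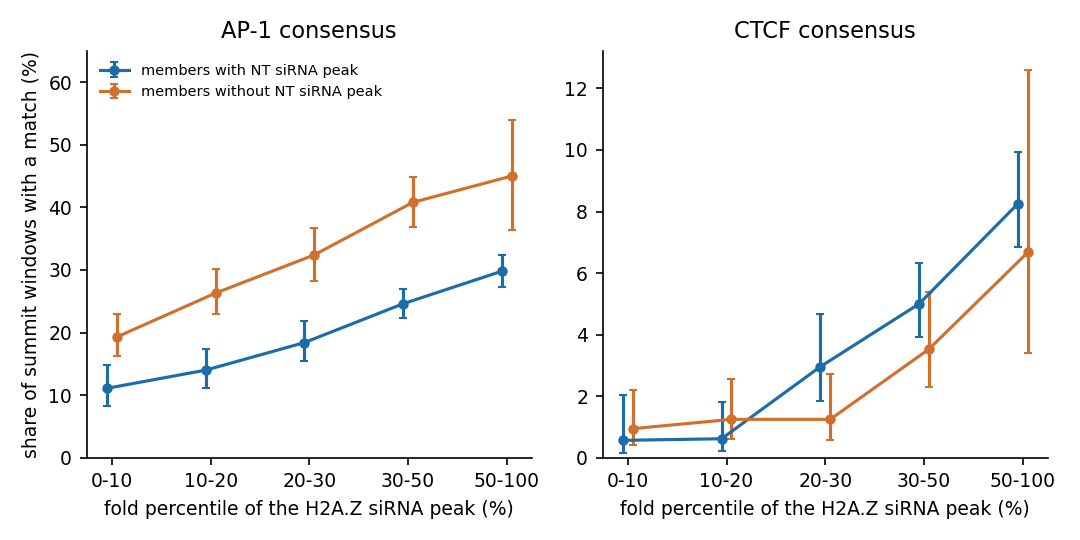
Share of windows of 100 bases on each side of the WT summit with an AP-1 (left) or CTCF (right) consensus match (vertical axes, %), by fold percentile of the H2A.Z siRNA peak, for members with and without an NT siRNA peak. Bars are 95% Wilson intervals. For AP-1 the set without an NT siRNA peak is higher in all 5 bins, and for CTCF the intervals overlap in all 5.

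SP1 and ETS matches were less frequent at members than at sites in all 4 lists, and so they were in the classes most like members. SP1 (GGGCGG, a GC box of promoters) matched 4.34% of members and 15% of sites in all 4 lists, lower on 19 of 19 autosomes, and ETS (CCGGAA) matched 2.6% and 6.49%. With and without an NT siRNA peak ETS stood at 2.68% and 2.44%. Sites in WT alone had 3.12% for SP1 and 2.3% for ETS, and the mirror class had 4.72% and 2.35%. Within promoters the shares at members and at sites in all 4 lists were 9.68% and 38.1% for SP1 and 3.74% and 15% for ETS, and away from them 3.57% and 4.77% for SP1 and 2.43% and 2.76% for ETS. The differences were thus found mainly within promoters. TEAD matched 16.7% (15.8 to 17.7%) of members (16.9% with and 16.4% without an NT siRNA peak), 19.3% (18.5 to 20.1%) of sites in WT alone and 20.2% of sites in all 4 lists. Shares for RUNX (TGNGGT, 40.9% of members and 40.4% of all WT sites) and NF-Y (CCAAT, 23.3% and 24%) were close. Between the sets RUNX differed by −2.98 points with against without an NT siRNA peak (−5.53 to −0.439), lower on 15 of 19 autosomes, and SP1 was higher by 1.31 points (0.261 to 2.3) on 12. CRE (TGACGTCA) was present at 18 members and the NFI palindrome at 4.

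Base composition and repeats also differed between the sets. The median GC content of the window was 48.8% with and 47.3% without an NT siRNA peak, compared with 46.8% at sites in WT alone and 50.2% at sites in all 4 lists. Windows with no repeat-masked base made up 48.3% and 42.2% of the sets, a difference of 6.16 points (3.58 to 8.71) on 17 of 19 autosomes.

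Summits of the WT and H2A.Z siRNA peaks at a member lay close together. Their median distance was 61 bp with and 63 bp without an NT siRNA peak, compared with 37 bp at sites in all 4 lists, and 67.4% and 65.2% were within 100 bp. The NT siRNA and H2A.Z siRNA summits were nearer to each other, at a median of 34 bp. In 10 of the 6203 members, all with an NT siRNA peak, the strongest WT and the strongest H2A.Z siRNA peak did not themselves overlap. Whether the NT siRNA peak alone joined them was not examined.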

How the data were processed

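ATAC-seq libraries of WT MEFs, Anp32e null MEFs and siRNA-treated Anp32e null MEFs were grouped by their sample labels. The authors used Bowtie2 (mm10) and Picard for alignment and removal of duplicates, and MACS2 on paired-end fragments. They deposited 1 peak list per group, whose libraries were taken as pooled. The deposited fold enrichment is a ratio of summit pileup to local background, and its values fit (pileup + 1)/(background + 1). The authors deposited p-values and q-values as −log10 values. The deposited display score was not used. The lists held 81848 (WT), 80433 (null), 87116 (NT siRNA) and 105816 (H2A.Z siRNA) peaks on the autosomes. Library coverage was not used here.

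Peaks were merged at a gap of 0 bp. Summit fragments and background were solved from fold and −log10 p under a Poisson model, and the pileups came out within 0.05 of whole numbers. The steps were tested on simulated data. Percentiles rank fold within a list, and the strongest peak stood for a site. TSSs were those of GENCODE M21, with 1 kb on either side as promoter. Summit windows were read from GRCm38 with pysam 0.24.0, and those printed leave out chromosome 18 and untranslated exons. Intervals are Wilson (shares) and Newcombe (differences), at 95%. With 1 list per group, no test was run. Sites to name were the 8 highest per set by the lower of the WT and H2A.Z siRNA percentiles, the 5 highest at a protein-coding TSS, and listed genes with a member within 1 kb of a TSS, up to 4 per list. The members, gene lists and consensus sequences were chosen with earlier results of these data known. Analyses used Python 3.11.15, NumPy 2.4.6, SciPy 1.17.1, pandas 2.3.3 and matplotlib 3.10.9.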

Additional observations from a re-analysis of the deposited data

How the results depend on the processing

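No paired analysis was possible because the deposited lists carry no replicates, and for that reason none could be left out. Of 10 alternatives, 8 kept the number of members within 1.5 times 6203. It was 2662 with a −log10 q of 5 or more in the WT and H2A.Z siRNA lists and 3757 with lists of equal length (80433 peaks). The share of members with an NT siRNA peak moved in 7 of 10. It was 65.8% with a −log10 q of 5 or more in all lists, 68.4% with that floor in the WT and H2A.Z siRNA lists, 72.5% with equal list lengths, 62.2% by direct overlap of WT peaks, 61.1% by WT summit, 64.9% for WT peaks passing at null depth and 68.8% for H2A.Z siRNA peaks passing at NT siRNA depth. The promoter share was 13.4% and 10.9% under the 2 floors, 10.5% with equal list lengths, 13.8% by summit, 11.7% without null peaks within 1 kb, 9.32% for promoters of 500 bp and 5.22% for protein-coding TSSs. The AP-1 share was 28.5% and 31.6% under the floors, 29.8% with equal lengths, 24.1% by summit, 26.9% and 27.4% under the WT and H2A.Z siRNA depth limits, 15.5% in windows of 50 bases on each side and 31.9% at H2A.Z siRNA summits.

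The AP-1 difference between the sets, whose alternatives were chosen after seeing the data, was negative in all 12. It was −12.9 points with the floor in the WT and H2A.Z siRNA lists, −14.5 with equal list lengths, −11.2 at NT siRNA depth and −4.69 in the shorter windows. The CTCF difference was positive in all 12, at 3.69 points with equal lengths, 1.75 in the shorter windows and 4.15 at H2A.Z siRNA summits. Leaving out chromosome 11, also added later, kept these 6 results within their intervals or, for the number of members, within 1.5 times. The cause of each shift was not tested, beyond the fewer peaks, the shorter windows or the fewer TSSs that a setting itself imposes.

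The single NT siRNA library and its low depth limit what absence of an NT siRNA peak can show.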

Other observations

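The X chromosome lay outside the rule and is given for comparison. Of 2123 WT sites there, 439 had no null peak, and 143 of these (32.6%, 28.4 to 37.1%) had an H2A.Z siRNA peak. Of the 143, 71 (49.7%, 41.6 to 57.7%) also had an NT siRNA peak. The lowest of the autosomes, chromosome 5, had 58.3% (53.3 to 63.2%), and the 2 intervals overlapped.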
